A study of Mus musculus with 12 samples.

Results

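Messenger RNA of 8 genes for S100 proteins was followed in mouse bone marrow cultures carrying different forms of MEIS1. The genes were S100a1, S100a4, S100a6, S100a8, S100a9, S100a10, S100a11 and S100a13, chosen by name, with every probe set that the array annotation gives to them. They had 11 of the 45101 probe sets of the Affymetrix mouse array, and all 11 passed the filter on dim signals. With 1 probe set per gene, the 8 members stood among 19990 features tested, a feature being a gene or a probe set without a single gene symbol. The probe set of S100a11 is also annotated to its pseudogene S100a11-ps and to Gm12854, so its signal could not be given to S100a11 alone.

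All cultures came from bone marrow of C57Bl/6Ly-Pep3b x C3H/HeJ F1 mice treated with 5-fluorouracil, transduced with NUP98-HOXD13 (ND13), a leukaemia fusion gene, and kept for 4 weeks in IL-6, IL-3 and stem cell factor. A second retrovirus then brought in M33-MEIS1, MEIS1-deltaHD (MEIS1 with its homeodomain deleted), MEIS1-WT (wild-type MEIS1) or, in the control, the vector MIY, which codes for yellow fluorescent protein. Each of the 4 groups had 3 arrays, and the series design speaks of independent experiments, so p-values measure the spread between such cultures. The labels give neither the age nor the number of the mice. The labels say no more about M33-MEIS1 than its name, in which M33 is an older name of the Polycomb protein Cbx2. The virus was passed on during 2 days on irradiated E86 producer cells, a fibroblast line, and RNA came from sorted cells, with no gate named in the labels.

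S100 proteins are small calcium-binding proteins of the EF-hand type that act as dimers and bind partner proteins when calcium rises. S100a8 and S100a9 pair as calprotectin, which is abundant in the cytosol of neutrophils and of some monocytes and, once released, acts on receptors such as Tlr4. S100a4 and S100a6 bind cytoskeletal and signalling proteins, and S100a10 and S100a11 bind annexins at membranes. MEIS1 is a homeodomain protein that binds DNA with HOX and PBX partners. The comparisons of MEIS1-deltaHD and M33-MEIS1 with MEIS1-WT ask how cells with these constructs differ from cells with wild-type MEIS1.

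The signals were array intensities from the authors, and differences are given on the scale of log2(signal + 16), where 1 stands for a 2-fold difference of signal + 16. The test was limma's, fitted to all features at once, with the Benjamini and Hochberg adjustment, and the threshold for a pass was an adjusted p of 0.05. Arrays of one group correlated at 0.982 to 0.989. Their median signals lay at 14 to 16 in M33-MEIS1, 13.1 to 13.9 in MEIS1-deltaHD, 14.3 to 15.3 in MEIS1-WT and 17.4 to 21.6 in MIY control, although each array had the same trimmed mean of 100. The median log2 difference of all features was -0.13 for M33-MEIS1, -0.17 for MEIS1-deltaHD and -0.12 for MEIS1-WT against MIY control, so small differences depend on the scaling. The probe set used for Meis1 read 104.2 to 132.6 in M33-MEIS1, 100.1 to 120 in MEIS1-deltaHD, 128.8 to 148.1 in MEIS1-WT and 167.8 to 204.5 in MIY control. No source used here says which part of the transcript it reads, so it does not check the labels. In bulk RNA, fewer cells of a type and less RNA per cell cannot be told apart.

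S100a8 and S100a9 were high in cells with M33-MEIS1 or MEIS1-deltaHD and low in cells with MEIS1-WT, while S100a6 was lower in cells with M33-MEIS1 or MEIS1-deltaHD than in cells with MEIS1-WT. S100a4 was highest with MEIS1-WT, and on the authors' scale the S100a11 probe set was lower with all 3 constructs than with the vector. On that scale S100a10 was lower with MEIS1-deltaHD and MEIS1-WT than with the vector, and S100a13 was lower with MEIS1-deltaHD. With arrays scaled to a common median these S100a10 and S100a13 calls were lost, as were those of S100a11 with M33-MEIS1 and MEIS1-deltaHD. S100a1 passed in no comparison on the authors' scale. With a common median it passed as higher with MEIS1-deltaHD and with MEIS1-WT than with MIY control. Against MIY control, 2 members were higher and 2 lower with M33-MEIS1, where 30.7% of all features passed, 12.4% as higher and 18.3% as lower. With MEIS1-deltaHD 2 were higher and 4 lower, where 36.6% of features passed, 13.8% as higher and 22.7% as lower. With MEIS1-WT 1 was higher and 4 lower, where 32.7% of features passed, 13.3% as higher and 19.4% as lower. So many features passed against control that these counts of members say little by themselves.

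Between constructs far fewer features passed. M33-MEIS1 against MEIS1-WT had 3 members higher and 1 lower, beside 6.46% of all features, 4.11% as higher and 2.36% as lower. MEIS1-deltaHD against MEIS1-WT had 3 higher and 2 lower, beside 5.25% of all features, 2.83% as higher and 2.43% as lower. M33-MEIS1 against MEIS1-deltaHD had 0 members past the limma test, beside 0.710% of all features, with 6 of 8 at an unadjusted p below 0.05 beside 10.7% of all features. The median log2 difference of the members was -0.06 for M33-MEIS1, -0.27 for MEIS1-deltaHD and -0.23 for MEIS1-WT against MIY control. It was 0.18 for M33-MEIS1 and -0.05 for MEIS1-deltaHD against MEIS1-WT, and 0.31 for M33-MEIS1 against MEIS1-deltaHD, where the median of all features was 0.02. The 3 comparisons with MIY control share their control arrays, and the 2 with MEIS1-WT share that group's arrays.

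**Figure D1:**
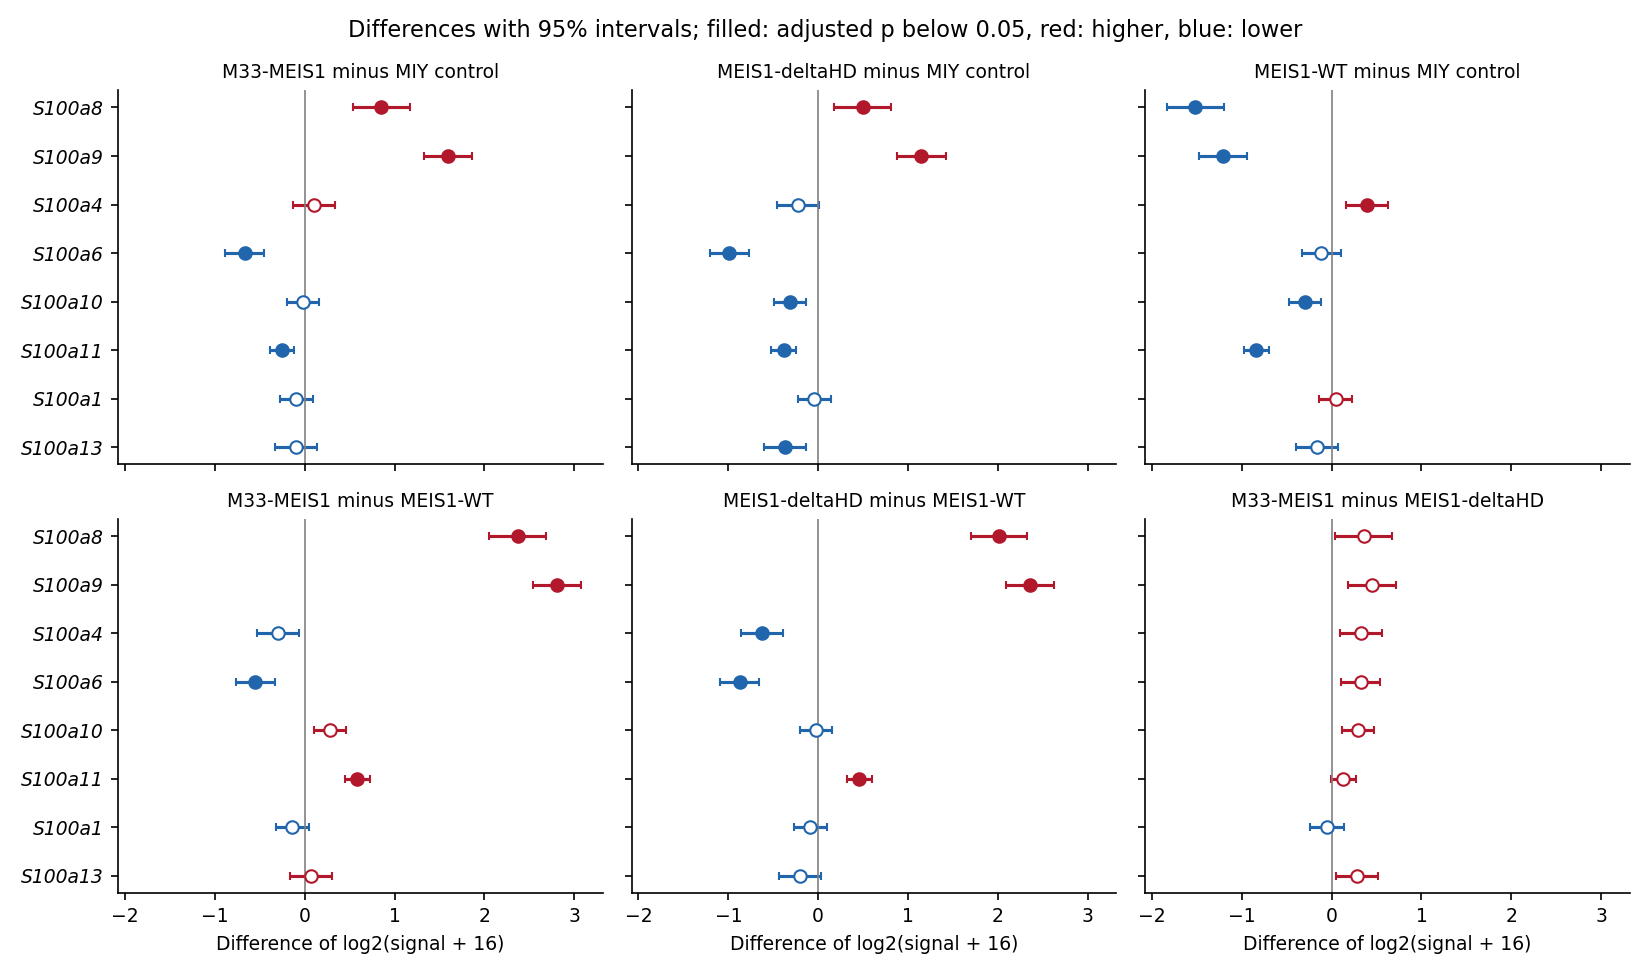
Log2 differences (x axis, log2 of signal + 16) of the 8 S100 genes in 6 comparisons, with 95% intervals from limma on 3 arrays per group. Filled points passed at an adjusted p below 0.05. S100a8 and S100a9 lie at 2.37 and 2.80 for M33-MEIS1 minus MEIS1-WT and at 2.01 and 2.36 for MEIS1-deltaHD minus MEIS1-WT, with S100a6 at -0.55 and -0.87 in the same comparisons.

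S100a8 and S100a9 form the calprotectin pair, and their genes are neighbours, 22595 bases apart on mouse chromosome 3. Their upstream windows are shown because these 2 genes differed most from MEIS1-WT among the 8, the S100a8 window at chr3:90668821-90669070 on the + strand and the S100a9 window at chr3:90695722-90695971 on the - strand of GRCm38.p6. Both are the 250 bases before the gene's start in RefSeq, written 5' to 3'. Capitals in the S100a9 window mark the letters TTGCNNAA, a C/EBP motif, and the reverse complement of TGACAG, the core bound by MEIS proteins. Capitals in the S100a8 window mark the reverse complement of GAGGAAG, a motif of the ETS factor PU.1.
S100a8: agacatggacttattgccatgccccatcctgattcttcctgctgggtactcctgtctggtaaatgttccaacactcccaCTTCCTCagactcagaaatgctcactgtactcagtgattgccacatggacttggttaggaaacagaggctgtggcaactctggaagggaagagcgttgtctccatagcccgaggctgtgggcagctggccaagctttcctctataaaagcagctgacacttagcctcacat
S100a9: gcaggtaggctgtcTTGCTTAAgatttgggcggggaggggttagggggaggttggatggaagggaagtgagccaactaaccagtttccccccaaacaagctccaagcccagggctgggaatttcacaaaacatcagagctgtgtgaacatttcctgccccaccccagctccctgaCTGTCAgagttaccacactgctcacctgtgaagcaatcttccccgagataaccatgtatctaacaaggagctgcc
These matches are descriptions of letters, not of binding. The TGACAG core lay 75 to 70 bases before the S100a9 start, and TTGCNNAA 236 to 229 bases before it. The GAGGAAG match lay 171 to 165 bases before the S100a8 start.

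S100a9 signals were 1036, 947.1 and 1150 with M33-MEIS1, 748.7, 892.9 and 657.3 with MEIS1-deltaHD, 120.1, 138.6 and 148.7 with MEIS1-WT, and 340.6, 257.5 and 423.5 with MIY control. No 2 of the 4 groups overlapped, and the order was M33-MEIS1, MEIS1-deltaHD, MIY control, MEIS1-WT. The mean was 1044 ± 101.9 with M33-MEIS1, 766.3 ± 118.8 with MEIS1-deltaHD, 135.8 ± 14.51 with MEIS1-WT and 340.5 ± 83.02 with MIY control (SD, n = 3 each). Against MIY control, S100a9 rose by 1.59 ± 0.13 (SE) on the log2 scale with M33-MEIS1 (limma adjusted p = 1.14e-09) and by 1.15 ± 0.13 with MEIS1-deltaHD (adjusted p = 1.62e-07). It fell by 1.21 ± 0.13 with MEIS1-WT (adjusted p = 6.91e-08). M33-MEIS1 and MEIS1-deltaHD thus lay on the opposite side of the vector from MEIS1-WT. The direct difference was 2.80 for M33-MEIS1 minus MEIS1-WT (adjusted p = 1.35e-13) and 2.36 for MEIS1-deltaHD minus MEIS1-WT (adjusted p = 5.53e-12). By size these stood at rank 11 and rank 9 from the highest of all 19990 features.

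S100a8 signals were 1648, 1534 and 1798 with M33-MEIS1, 1233, 1507 and 1153 with MEIS1-deltaHD, 330.6, 279.4 and 315 with MEIS1-WT, and 917.8, 628.2 and 1301 with MIY control. All MEIS1-WT arrays lay below every other array, all M33-MEIS1 arrays lay above every other array, and MEIS1-deltaHD overlapped MIY control. The control arrays spread widely, with a mean of 949.1 ± 337.6 (SD, n = 3). S100a8 was higher by 0.85 ± 0.15 (SE) with M33-MEIS1 than with MIY control (limma adjusted p = 0.000118) and fell by 1.52 ± 0.15 with MEIS1-WT (adjusted p = 2.47e-08). The rise with MEIS1-deltaHD was 0.50 ± 0.15 (adjusted p = 0.0127), and it did not pass without the second control array (0.24, adjusted p = 0.143) or without the second MEIS1-deltaHD array (0.39, adjusted p = 0.0898). It also did not pass after quantile normalization (0.36, adjusted p = 0.0808), with a robust fit (adjusted p = 0.112) or without the intensity trend (adjusted p = 0.0907). Against MEIS1-WT, S100a8 was higher by 2.37 with M33-MEIS1 (adjusted p = 5.06e-11) and by 2.01 with MEIS1-deltaHD (adjusted p = 1.81e-09), at ranks 16 and 13 from the highest of all features.

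Between M33-MEIS1 and MEIS1-deltaHD, S100a9 differed by 0.45 (95% interval 0.18 to 0.71, limma adjusted p = 0.134) and S100a8 by 0.36 (0.04 to 0.67, adjusted p = 0.406). Neither passed over all features, and the intervals do not show that the forms act alike. With only these 2 groups in the fit S100a9 passed (adjusted p = 0.0187), as it did without the second control array (adjusted p = 0.0366). S100a6 passed without the second M33-MEIS1 array (0.47, adjusted p = 0.0169). Against MIY control the difference of S100a9 was 1.59 and that of S100a8 0.85 with M33-MEIS1, and 1.15 and 0.50 with MEIS1-deltaHD, while with MEIS1-WT they were -1.21 and -1.52. Whether the 2 genes differ in their response was not tested. Within groups, the 3 arrays had the same order for S100a8 and S100a9 in 3 of 4 groups, MEIS1-WT being the exception, and the same order for S100a8 and the S100a11 probe set in 4 of 4. Of the 28 pairs of members, 7 had the same order in 3 or more groups, and 2 of these in 4 of 4, so such agreement is not particular to S100a8 and S100a9.

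**Figure D2:**
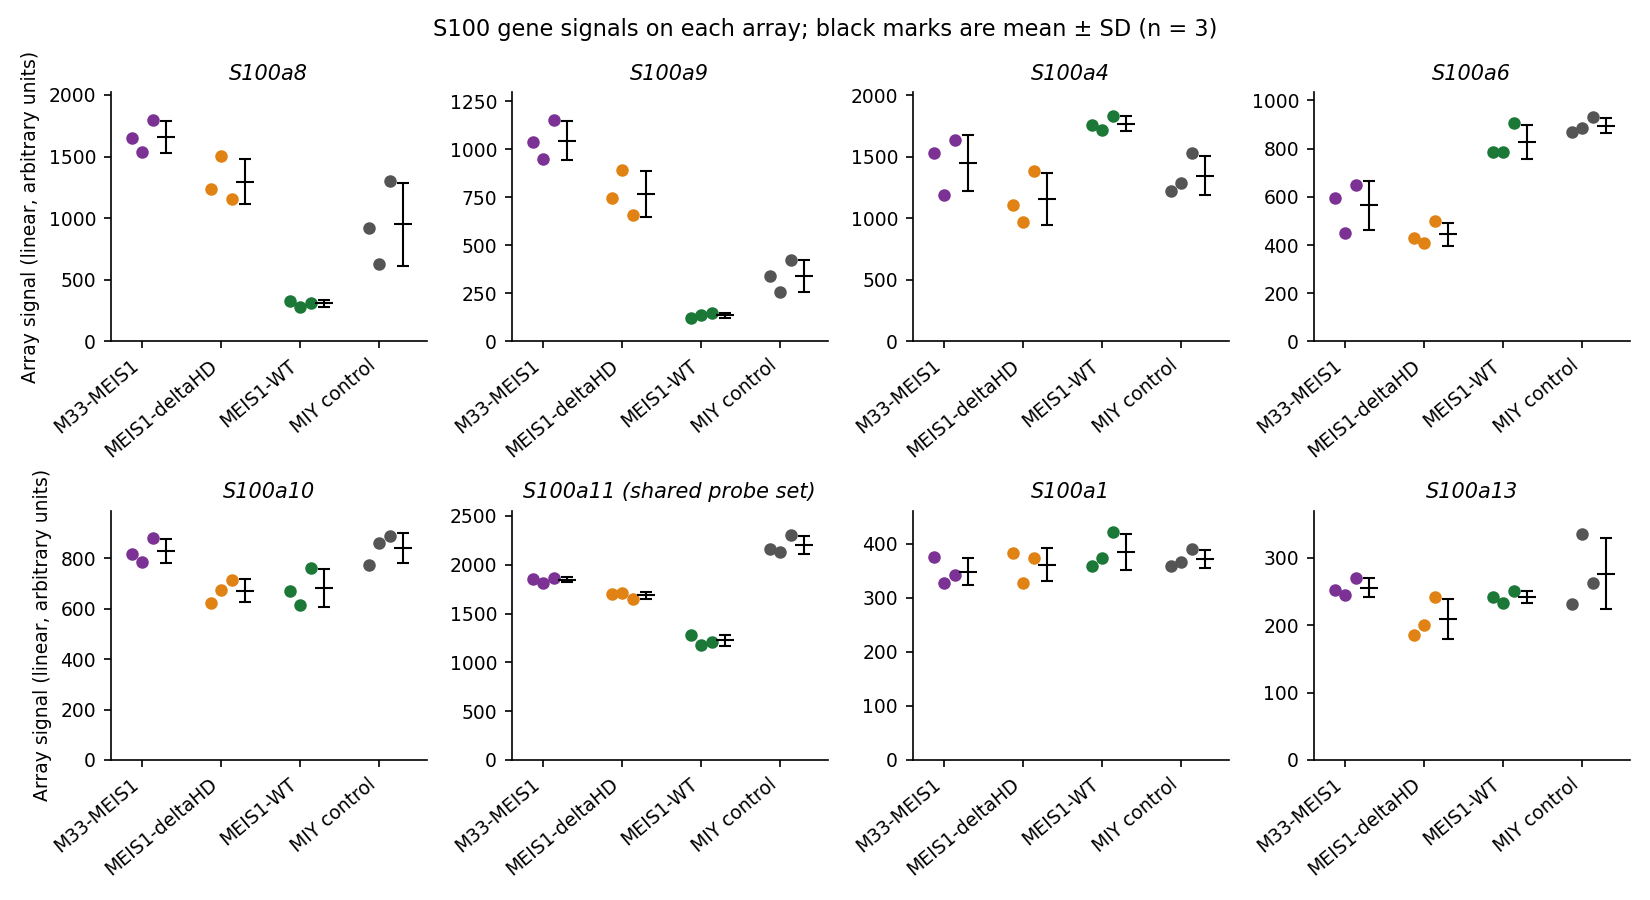
Array signal (y axis, linear, arbitrary units, from 0) of the probe set used for each S100 gene, 1 point per array, with mean ± SD of 3 arrays in black. S100a9 reads 947.1 to 1150 with M33-MEIS1, 657.3 to 892.9 with MEIS1-deltaHD, 120.1 to 148.7 with MEIS1-WT and 257.5 to 423.5 with MIY control, without overlap, and S100a1 overlaps among all groups.

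The genes with the pattern most like S100a8 over the 12 arrays were Tifab (Pearson r = 0.984), Tfec (0.98), Igfbp4 (0.978), Emb (0.978) and Mgst2 (0.973). Those most like S100a9 were Dstn (0.973), Tfec (0.971), Svip (0.969), BC035044 (0.967) and S100a8 (0.965). Tfec, a transcription factor of the MiT family, stood in both. The 12 arrays fall into 4 groups, so these values describe the order of the groups and carry no test.

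S100a6, a protein of proliferating cells that binds the calcyclin-binding protein Cacybp, was lower with M33-MEIS1 and MEIS1-deltaHD than with MEIS1-WT or the vector. Its signals were 596.5, 449 and 647.4 with M33-MEIS1, 428.7, 407.3 and 498.2 with MEIS1-deltaHD, 787.6, 784.2 and 906.8 with MEIS1-WT, and 868.1, 887 and 931.5 with MIY control. Every array of M33-MEIS1 and of MEIS1-deltaHD lay below every array of MEIS1-WT and MIY control, and within each of these pairs the groups overlapped. S100a6 fell by 0.67 ± 0.10 (SE) with M33-MEIS1 (limma adjusted p = 2.36e-05) and by 0.99 ± 0.10 with MEIS1-deltaHD (adjusted p = 5.86e-08) relative to MIY control. The difference for MEIS1-WT was -0.12 ± 0.10 (adjusted p = 0.434), and it turned to 0.24 when arrays were scaled to a common median. With that scaling the difference for M33-MEIS1 was -0.31 and did not pass (adjusted p = 0.0637). Against MEIS1-WT, S100a6 fell by 0.55 with M33-MEIS1 (adjusted p = 0.000947) and by 0.87 with MEIS1-deltaHD (adjusted p = 3.20e-06) and the MEIS1-deltaHD value stood at rank 107 from the lowest of all features. Its nearest genes in pattern over the 12 arrays were Clec4e (0.966), Ndel1 (0.957), Gramd1b (0.952), Shank3 (0.951) and Crk (0.936).

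S100a4, also called metastasin, binds non-muscle myosin. Its signals were 1527, 1191 and 1632 with M33-MEIS1, 1109, 967.7 and 1384 with MEIS1-deltaHD, 1758, 1714 and 1831 with MEIS1-WT, and 1225, 1289 and 1527 with MIY control. The MEIS1-WT arrays lay above all others, and the other 3 groups overlapped each other. S100a4 rose by 0.39 ± 0.11 (SE) with MEIS1-WT relative to MIY control (limma adjusted p = 0.00856), a call that was lost without the first control array (0.33, adjusted p = 0.054) and without the intensity trend (adjusted p = 0.0746). The difference from MIY control was 0.10 with M33-MEIS1 (adjusted p = 0.553) and -0.23 with MEIS1-deltaHD (adjusted p = 0.117). The MEIS1-deltaHD difference passed after quantile normalization (-0.37, adjusted p = 0.00997) and without the third MEIS1-deltaHD array (-0.37, adjusted p = 0.0141), and it turned to 0.27 with arrays scaled to a common median (adjusted p = 0.122). With a common median the M33-MEIS1 difference was 0.46 and passed (adjusted p = 0.00857). S100a4 fell by 0.62 with MEIS1-deltaHD relative to MEIS1-WT (adjusted p = 0.000740), a call lost without the intensity trend (adjusted p = 0.0548), and M33-MEIS1 minus MEIS1-WT was -0.29 (adjusted p = 0.146). S100a4 and S100a6 ranked the 3 arrays in the same order in 4 of 4 groups, which 2 of the 28 pairs of members did. The genes nearest to S100a4 in pattern were Sesn1 (0.924), Ccl4 (0.906), Kdm3a (0.896), Gsn (0.891) and Pf4 (0.868).

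The probe set shared by S100a11, S100a11-ps and Gm12854 was lower with every construct. Its signals were 1856, 1814 and 1863 with M33-MEIS1, 1702, 1707 and 1647 with MEIS1-deltaHD, 1285, 1179 and 1212 with MEIS1-WT, and 2161, 2134 and 2309 with MIY control. The 4 groups did not overlap, and MEIS1-WT was lowest. Relative to MIY control it fell by 0.84 ± 0.07 (SE) with MEIS1-WT (limma adjusted p = 5.03e-10), by 0.38 ± 0.07 with MEIS1-deltaHD (adjusted p = 7.38e-05) and by 0.25 ± 0.07 with M33-MEIS1 (adjusted p = 0.00542). When arrays were scaled to a common median, the MEIS1-deltaHD and M33-MEIS1 values turned to 0.12 and 0.11 and did not pass, while MEIS1-WT kept its call. It was higher than in MEIS1-WT by 0.58 with M33-MEIS1 (adjusted p = 1.05e-06) and by 0.46 with MEIS1-deltaHD (adjusted p = 5.98e-05). The genes nearest in pattern were Ifitm6 (0.995), Msrb1 (0.994), Pld4 (0.992), Cybb (0.991) and Tpd52 (0.991), of which Cybb codes for the catalytic subunit of the phagocyte NADPH oxidase.

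S100a10, the p11 subunit that joins annexin A2 in a complex at membranes, had 2 bright probe sets and a dim one. The one used read 818, 786.8 and 880.3 with M33-MEIS1, 624.7, 675 and 715.8 with MEIS1-deltaHD, 671.4, 614.4 and 763 with MEIS1-WT, and 772.5, 862.7 and 887.9 with MIY control. Arrays of MEIS1-deltaHD and MEIS1-WT lay below all arrays of M33-MEIS1 and MIY control, which overlapped each other. S100a10 fell by 0.32 ± 0.09 (SE) with MEIS1-deltaHD (limma adjusted p = 0.00511) and by 0.30 ± 0.09 with MEIS1-WT (adjusted p = 0.00916) relative to MIY control, and the M33-MEIS1 difference was -0.02 (adjusted p = 0.888). The second bright probe set gave -0.60 for MEIS1-deltaHD, -0.43 for MEIS1-WT and -0.13 for M33-MEIS1, the first pair of which passed. With arrays scaled to a common median the S100a10 differences were 0.18, 0.06 and 0.33 in that order of groups, and the last of these passed (adjusted p = 0.0310). The MEIS1-WT call was also lost with the mean of the probe sets (adjusted p = 0.0935), without the intensity trend (adjusted p = 0.0571) and without the second MEIS1-WT array (adjusted p = 0.0786). M33-MEIS1 minus MEIS1-WT was 0.28 (adjusted p = 0.0561), and it passed without the third MEIS1-WT array (0.36, adjusted p = 0.0184), the second control array (adjusted p = 0.0435) or the third control array (adjusted p = 0.0474). The dim probe set read 7.013 to 40.29 and passed in no comparison.

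S100a13 takes part in the release of fibroblast growth factor 1 and interleukin 1 alpha. It read 252.8, 244.2 and 270.8 with M33-MEIS1, 185, 201 and 241.7 with MEIS1-deltaHD, 241.8, 233.4 and 251.1 with MEIS1-WT, and 232, 335.2 and 262.9 with MIY control. The groups overlapped except that MEIS1-deltaHD lay below M33-MEIS1. It fell by 0.37 ± 0.11 (SE) with MEIS1-deltaHD relative to MIY control (limma adjusted p = 0.0118), a call lost without the first MEIS1-deltaHD array (adjusted p = 0.0809), the second control array (adjusted p = 0.106) or the intensity trend (adjusted p = 0.0523), and its sign turned with arrays scaled to a common median (0.11). S100a1, a protein best known from heart muscle, had mean signals of 347.8 ± 25.18 with M33-MEIS1, 361.2 ± 30.36 with MEIS1-deltaHD, 384.6 ± 33.34 with MEIS1-WT and 371.6 ± 16.04 with MIY control (SD, n = 3 each). All 4 groups of S100a1 overlapped, and its differences lay between -0.14 and 0.05 in the 6 comparisons. With arrays scaled to a common median its differences from MIY control were 0.25 with M33-MEIS1 (adjusted p = 0.159), 0.44 with MEIS1-deltaHD (adjusted p = 0.00606) and 0.40 with MEIS1-WT (adjusted p = 0.0159), and the last pair passed.

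Of 8 further S100 genes listed for this work, 6 were on the array and 2 passed the filter. S100a5 averaged 38.24 with M33-MEIS1, 31.21 with MEIS1-deltaHD, 47.32 with MEIS1-WT and 38.99 with MIY control, and S100a16 averaged 10.92 with M33-MEIS1, 11.27 with MEIS1-deltaHD, 19.88 with MEIS1-WT and 23.83 with MIY control. Both were dim, and limma called 0 of their 12 tests at the adjusted threshold and 3 at an unadjusted p below 0.05. S100a3, S100a14, S100b and S100g stayed below the filter. S100a7a and S100z were not matched to a probe set.

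The annexins, the membrane proteins that several S100 dimers bind, had 10 tested genes. For these and the following lists, 3 differences given together are from MIY control, for M33-MEIS1, MEIS1-deltaHD and MEIS1-WT. In that order of groups 30.7%, 36.6% and 32.7% of all features passed against MIY control. Against MEIS1-WT 6.46% passed for M33-MEIS1 and 5.25% for MEIS1-deltaHD. List counts near these shares say little by themselves. Against MIY control 1 annexin was higher and 4 lower with M33-MEIS1, 1 and 5 with MEIS1-deltaHD, and 1 and 5 with MEIS1-WT, with medians of -0.19, -0.50 and -0.35. Anxa1, the partner of S100a11, had log2 differences of -0.44, -0.46 and -0.55 in that order of groups, all of which passed. Anxa3, an annexin of neutrophils, went the other way with M33-MEIS1 and MEIS1-deltaHD. It averaged 2028 ± 136.1 with M33-MEIS1, 1957 ± 147.8 with MEIS1-deltaHD, 1135 ± 9.936 with MEIS1-WT and 1209 ± 187.7 with MIY control (SD, n = 3 each). Its log2 difference from MIY control was 0.75 (limma adjusted p = 5.86e-07), 0.70 (adjusted p = 1.19e-06) and, for MEIS1-WT, -0.08 (adjusted p = 0.553). Anxa2, the partner of S100a10, chosen after its values were seen, differed by -0.09 with M33-MEIS1, -0.53 with MEIS1-deltaHD and -0.53 with MEIS1-WT, the last pair of which passed.

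Of 11 genes for intracellular S100 partners, 2 were higher and 3 lower with M33-MEIS1 than with MIY control, 4 and 6 with MEIS1-deltaHD, and 3 and 6 with MEIS1-WT. Anxa2 stands in this list too, so it is counted here as well as among the annexins. Cacybp, the S100a6 partner, rose by 0.56, 0.60 and 0.56. Ahnak, a large scaffold protein bound by the S100a10 and annexin A2 complex, averaged 136 ± 17.38 with M33-MEIS1, 62.48 ± 4.788 with MEIS1-deltaHD, 16.68 ± 3.055 with MEIS1-WT and 334.5 ± 47.4 with MIY control (SD, n = 3 each). Its log2 differences from MIY control were -1.20, -2.15 and -3.42, and each passed. Receptors and co-receptors of released S100a8 and S100a9 had 8 tested genes, of which 1 was higher and 4 lower with M33-MEIS1, 1 and 5 with MEIS1-deltaHD, and 1 and 4 with MEIS1-WT. Tlr4 gave -0.94, -1.02 and -1.62, and Cd14, its co-receptor, -0.45, -0.47 and -1.58, each a pass, so these receptors were lower also in the groups where S100a8 and S100a9 were higher. Bsg (CD147), a receptor of S100a9, rose by 0.59, 0.58 and 0.61.

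The phagocyte NADPH oxidase, to which calprotectin delivers arachidonic acid, had 5 tested subunits, of which 1 was higher and 3 lower with M33-MEIS1 than with MIY control, 0 and 3 with MEIS1-deltaHD, and 0 and 3 with MEIS1-WT. Cybb averaged 303.6 ± 40.95 with M33-MEIS1, 220 ± 20.46 with MEIS1-deltaHD, 22.35 ± 3.574 with MEIS1-WT and 1172 ± 281.9 with MIY control (SD, n = 3 each). A list of other calcium-binding proteins, mostly of the EF-hand type, had 15 tested genes. Against MIY control 7 were higher and 3 lower with M33-MEIS1, 6 and 4 with MEIS1-deltaHD, and 3 and 6 with MEIS1-WT. Calr, calreticulin, has no EF-hand and is counted as higher with M33-MEIS1 (0.45) and MEIS1-deltaHD (0.31). Among the 15, Pef1, penta-EF-hand domain protein, rose by 0.69, 0.65 and 0.51. Capn2, a calpain, gave -0.81, -1.17 and -1.15, and all values of Pef1 and Capn2 passed.

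Transcription factors of the C/EBP family and of myeloid cells had 11 tested genes. Against MIY control 0 were higher and 5 lower with M33-MEIS1, 0 and 5 with MEIS1-deltaHD, and 0 and 10 with MEIS1-WT, with medians of -0.23, -0.28 and -0.84. Against MEIS1-WT, 6 were higher and 0 lower both with M33-MEIS1 and with MEIS1-deltaHD. Irf8, a factor of monocyte and dendritic cell development, averaged 339.5 ± 40.24 with M33-MEIS1, 264.4 ± 9.473 with MEIS1-deltaHD, 63.83 ± 9.352 with MEIS1-WT and 294 ± 60.39 with MIY control (SD, n = 3 each). It fell by 1.95 with MEIS1-WT (limma adjusted p = 6.50e-12), and its differences with M33-MEIS1 and MEIS1-deltaHD were 0.21 and -0.13. Cebpb gave -0.87, -0.94 and -1.62 with M33-MEIS1, MEIS1-deltaHD and MEIS1-WT, and each passed.

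Markers of the cells that carry S100a8 and S100a9 differed between the groups, but not all in the direction of these genes. The primary granule list had 7 tested genes, the granule protein genes Mpo, Elane, Prtn3 and Ctsg and the further markers Ms4a3, Gstm1 and Nkg7. Of the 7, 5 were higher and 0 lower with M33-MEIS1 than with MIY control, 4 and 0 with MEIS1-deltaHD, and 1 and 3 with MEIS1-WT. With MEIS1-WT the higher one was Ms4a3, at 1653 beside 1073 in control, and Gstm1 was among the lower (-0.49). The summed signal of the 7 was 22410 to 26000 with M33-MEIS1, 22830 to 24220 with MEIS1-deltaHD, 15220 to 15930 with MEIS1-WT and 14700 to 18410 with MIY control. Elane, neutrophil elastase, rose by 1.43 with M33-MEIS1 and 1.63 with MEIS1-deltaHD, and differed by 0.13 with MEIS1-WT (limma adjusted p = 0.627).

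Among 13 tested secondary granule and later neutrophil genes, 9 had a mean signal below 50, and 1 was higher and 3 lower with M33-MEIS1 than with MIY control, 1 and 4 with MEIS1-deltaHD, and 0 and 6 with MEIS1-WT. The higher one was Ngp, a neutrophil granule protein, at 240.3 ± 35.3 with M33-MEIS1, 186.5 ± 30.76 with MEIS1-deltaHD, 38.71 ± 6.552 with MEIS1-WT and 61.72 ± 11.33 with MIY control (SD, n = 3 each). Ngp thus had the group order of S100a8 and S100a9. The summed signal of the list was below control with all 3 constructs, unlike Ngp, S100a8 and S100a9 with M33-MEIS1 and MEIS1-deltaHD, at 1536 to 1814 with M33-MEIS1, 953.6 to 1102 with MEIS1-deltaHD, 377.1 to 467.3 with MEIS1-WT and 4479 to 4781 with MIY control. Much of it was Mmp8, neutrophil collagenase, which gave -1.95, -3.01 and -4.28. Lcn2, lipocalin 2, gave -1.61, -1.65 and -2.33, and all of these passed.

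Of 16 monocyte and macrophage genes, 0 were higher and 15 lower with M33-MEIS1 than with MIY control, 0 and 15 with MEIS1-deltaHD, and 0 and 16 with MEIS1-WT. Their summed signal was 4533 to 5118 with M33-MEIS1, 2669 to 3005 with MEIS1-deltaHD, 745.9 to 850.6 with MEIS1-WT and 14560 to 16990 with MIY control. Against MEIS1-WT, 13 were higher and 0 lower with M33-MEIS1, and 11 and 0 with MEIS1-deltaHD. Lyz2, lysozyme M, averaged 1345 ± 114.3 with M33-MEIS1, 629.8 ± 22.45 with MEIS1-deltaHD, 111.5 ± 13.02 with MEIS1-WT and 5391 ± 118.7 with MIY control (SD, n = 3 each). So S100a8 and S100a9 were higher with M33-MEIS1 and MEIS1-deltaHD than with the vector while these monocyte genes were lower. The part of cell makeup in the S100 differences was not tested.

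Of 10 tested mast cell and basophil genes, 5 were higher and 1 lower with M33-MEIS1 than with MIY control, 2 and 7 with MEIS1-deltaHD, and 2 and 7 with MEIS1-WT. Their summed signal was 5060 to 5545 with M33-MEIS1, 2551 to 2826 with MEIS1-deltaHD, 2342 to 2496 with MEIS1-WT and 3386 to 4876 with MIY control. Fibroblast genes bear on S100a4 and S100a6, which fibroblasts also express. Of 14 listed, 10 were tested, 8 of these with a mean signal below 50, and their summed signal was 320.9 to 326.8 with M33-MEIS1, 288.1 to 379.1 with MEIS1-deltaHD, 375.2 to 432.5 with MEIS1-WT and 505.6 to 594.8 with MIY control. Only Pdgfrb passed against control, as lower with each construct, and Col3a1, Dcn, Lum and Postn stayed below the filter. Counts against MIY control for the other lists, higher then lower, were for 5 erythroid genes 1 and 0 with M33-MEIS1, 1 and 1 with MEIS1-deltaHD, and 1 and 1 with MEIS1-WT. For 7 megakaryocyte genes they were 1 and 2, 0 and 3, and 1 and 2, and for 4 dendritic cell genes 0 and 2, 0 and 3, and 1 and 1. The higher erythroid gene was Tfrc, the transferrin receptor, each time. Tfrc averaged 3158 with M33-MEIS1, 3004 with MEIS1-deltaHD, 3008 with MEIS1-WT and 789.8 with MIY control. The other 4 erythroid genes had a mean signal below 50, so the erythroid counts say little about erythroid cells. Against MIY control limma called 0 of 6 tests of B cell genes, with 1 at an unadjusted p below 0.05, and 0 of 9 tests of T and NK cell genes, with 0 unadjusted. Only 2 of 8 listed B cell genes and 3 of 9 listed T and NK cell genes were tested. All of these had a mean signal below 50, so the tests could hardly show a change in those cells.

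**Figure D3:**
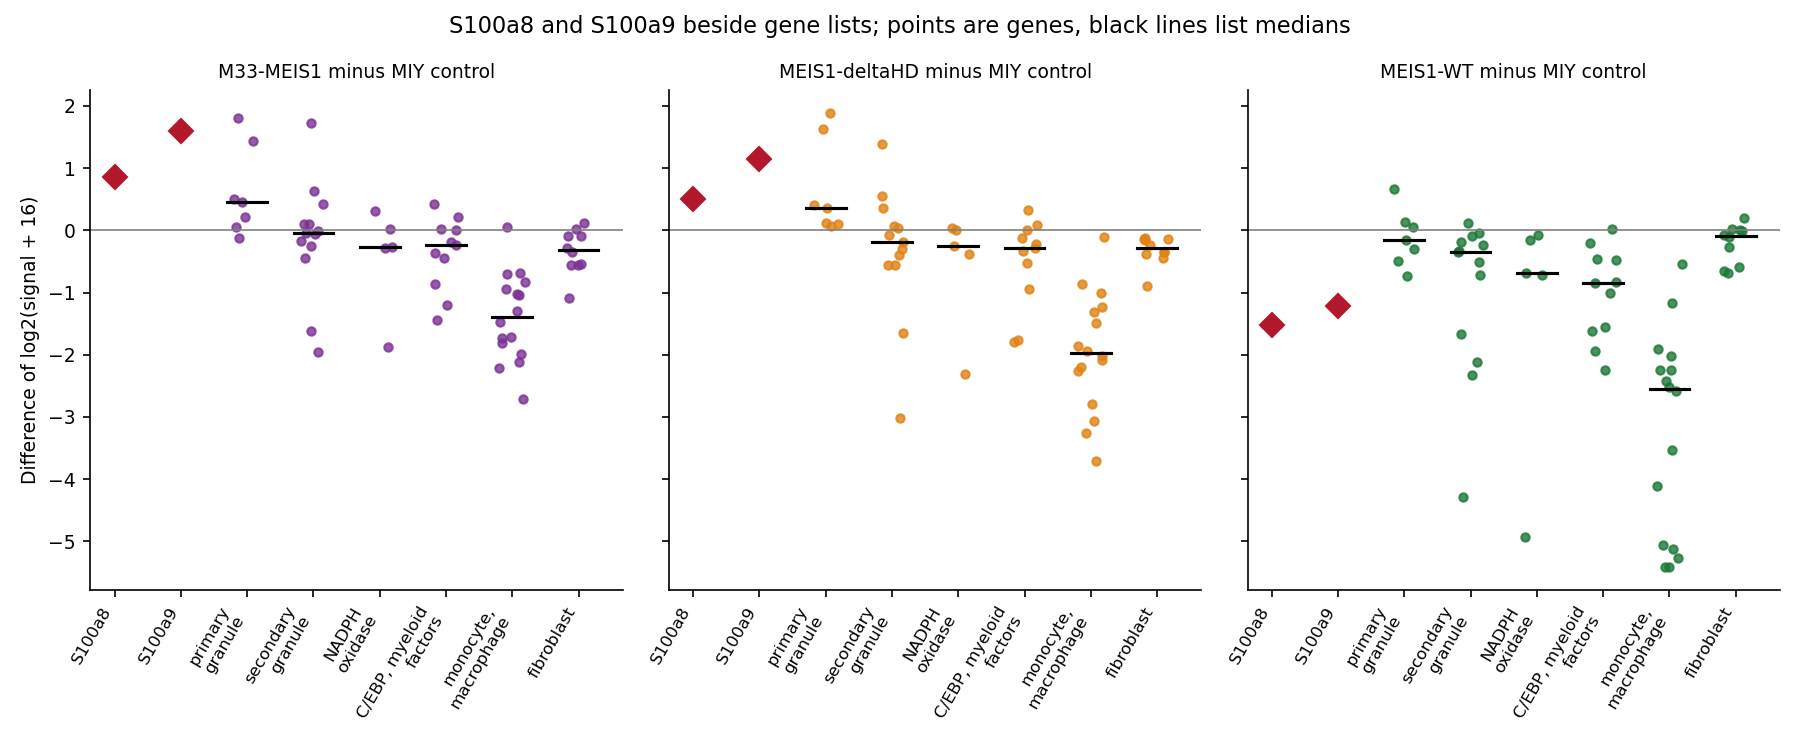
Log2 differences from MIY control (y axis, log2 of signal + 16) of S100a8 and S100a9 (red diamonds) and of the tested genes of 6 lists (points), with the list median as a black line, for M33-MEIS1, MEIS1-deltaHD and MEIS1-WT. The 2 S100 genes lie at 0.85 and 1.59, at 0.50 and 1.15, and at -1.52 and -1.21, where the monocyte and macrophage list has medians of -1.39, -1.97 and -2.55.

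All 8 genes lie on mouse chromosome 3, as in RefSeq on GRCm38.p6. S100a1, S100a13, S100a4, S100a6, S100a8 and S100a9 follow each other within 185 kb, and S100a11 and S100a10 lie 2.82 Mb further on. S100a1 and S100a13 are read in opposite directions from overlapping starts. Members of this short stretch went different ways, since S100a8 and S100a9 were higher and S100a6 lower with M33-MEIS1 than with MIY control. Between the outermost members RefSeq lists 93 other genes, of which 20 were tested. Against MIY control 2 of these were higher and 3 lower with M33-MEIS1, 0 and 6 with MEIS1-deltaHD, and 2 and 6 with MEIS1-WT. In these comparisons 30.7%, 36.6% and 32.7% of all features passed. Between constructs limma called 0 of 60 tests, with 3 at an unadjusted p below 0.05, where 0.710% to 6.46% of all features passed. None of the 20 averaged above 77.08 in any group, so these counts say little about the stretch. The neighbours with a difference of at least 1 were Sprr2k, Lce1h and Lce1i, genes of the skin barrier with mean signals of at most 50.26. Sprr2k and Lce3c averaged at most 6.87 with each construct, and 24.16 and 24.39 with MIY control. The 40th percentile used by the filter was 8.21 or more in construct arrays and at most 14.8 in control arrays. By these means both passed the filter through the control arrays, so their calls as lower carry no weight.

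Upstream windows were listed for 7 of the 8 members, S100a10 having none in the table. The TGACAG core, searched on both strands, was present in 1 of the 7, that of S100a9, and in 15.9% of 32851 mouse promoter windows of the same length. TTGCNNAA was in 1 of 7, again S100a9, and in 9.56% of all windows, and GAGGAAG in 1 of 7, S100a8, and in 10.6%. The HOX and PBX motif TGATTNAT was in 0 of 7 and in 2.82% of all, and the STAT motif TTCNNNGAA in 0 of 7 and in 7.02%. The AP-1 motif TGANTCA was in the S100a11 window and in 6.75% of all, and the NF-kB motif in those of S100a4 and S100a11 and in 17.6%. No match overlapped another in the printed windows, and these counts are too few to set the members apart.

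The values depend on how arrays are scaled, since the control arrays had the higher medians. Scaling to a common median in place of the authors' target moved the median log2 difference of all features by 0.223 for M33-MEIS1, 0.303 for MEIS1-deltaHD and 0.225 for MEIS1-WT against MIY control, and quantile normalization moved it by 0.118, 0.157 and 0.126. The share of passing features that were higher than in MIY control was 40.3% with M33-MEIS1 on the authors' scale, 50.7% after quantile normalization and 80.6% with a common median. It was 37.8%, 49.7% and 82.2% for MEIS1-deltaHD, and 40.7%, 51.1% and 77.4% for MEIS1-WT. For MEIS1-deltaHD against MEIS1-WT it was 53.8%, 55.3% and 76.6%, and for M33-MEIS1 against MEIS1-deltaHD 94.4%, 93.1% and 80%. Under both other scalings S100a9 kept its direction and its call in each comparison with MIY control and with MEIS1-WT. S100a8 did so too, except that MEIS1-deltaHD against MIY control did not pass after quantile normalization. The quantile-normalized values of most members lay slightly below those on the authors' scale, and those with a common median lay above both.

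**Figure D4:**
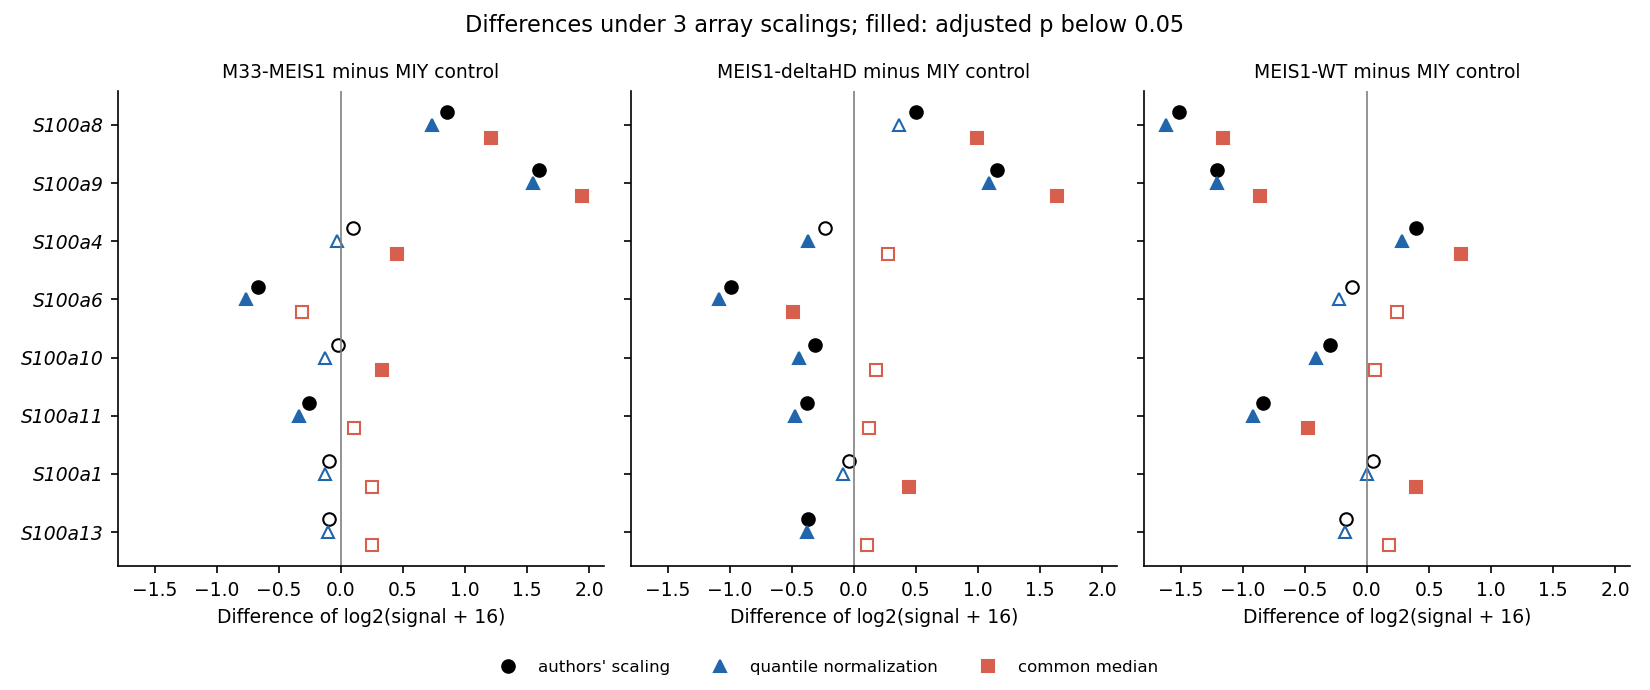
Log2 differences from MIY control (x axis, log2 of signal + 16) of the 8 S100 genes with the authors' scaling (black circles), after quantile normalization (blue triangles) and with arrays scaled to a common median (red squares). Filled marks passed at an adjusted p below 0.05. S100a8 and S100a9 keep their side of 0 in each scaling, and S100a10 does not.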

How the data were processed

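Total RNA of 12 cultures, 3 in each of 4 groups, was measured on Affymetrix mouse arrays. The deposited values are array intensity, the linear signal of each probe set from GCOS 1.2, per the submitters' processing notes. Trimmed by 2% at each end, the mean was 100 on every array, so the authors had scaled the arrays to 1 target. No source used here names their background settings.

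The 64 control probe sets were left out, and 31726 probe sets were kept that exceeded the array's 40th percentile in 3 or more of the 12 arrays. The brightest kept probe set stood for each gene, giving 19990 features. Log2(signal + 16), which makes differences of dim genes smaller, was fitted to the 12 arrays together (R 4.3.3, limma 3.58.1) by lmFit and eBayes with an intensity trend, 8 residual degrees of freedom and no block. P-values were two-sided and adjusted within a comparison by Benjamini and Hochberg. A rank-based exact test of 3 against 3 arrays cannot give a p below 0.1, and precision is limited by the number of arrays. The method was tested on simulated data.

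The S100 genes and the other 17 gene lists were chosen with earlier results of these data known. The lists were annexins, partners, receptors, NADPH oxidase, transcription factors, other calcium-binding proteins, other S100 genes and 10 cell type lists. Of their genes, those named were the up to 4 with the largest difference from control among those that passed and the 2 with the highest signal, of which the text gives a part, besides the 5 genes most correlated with each member. Symbols came from the platform annotation (34945 probe sets with 1 symbol, 932 with several, 9160 with none), and positions and upstream windows from RefSeq on GRCm38.p6, where 7 of 8 members had a window. Replicate numbers were not used to pair the arrays, as described with the alternatives.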

Additional observations from a re-analysis of the deposited data

How the results depend on the processing

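There were 25 alternatives, 12 of which leave out 1 array. The log2 differences of the 8 S100 genes kept their direction and their side of the threshold in 1136 of 1188 values. Without a change of sign, 15 lost the call and 13 gained it. The sign changed in 24, some of which also lost or gained the call. S100a9 kept all its calls against MIY control and MEIS1-WT. The cause of the changes was not tested, save where fewer probe sets or arrays are left by construction. With arrays scaled to a common median, the differences from MIY control changed sign for M33-MEIS1 to 0.33 (S100a10), 0.25 (S100a13), 0.25 (S100a1) and 0.11 (S100a11). For MEIS1-deltaHD they changed to 0.18 (S100a10), 0.11 (S100a13), 0.44 (S100a1), 0.27 (S100a4) and 0.12 (S100a11), and for MEIS1-WT to 0.0634 (S100a10), 0.18 (S100a13) and 0.24 (S100a6). MEIS1-deltaHD minus MEIS1-WT became 0.12 for S100a10 and 0.0465 for S100a1, and M33-MEIS1 minus MEIS1-deltaHD became -0.0166 for S100a11. Against MIY control this scaling gave 4 members higher and 0 lower for M33-MEIS1, with S100a4 (0.46) and S100a10 gained as higher and S100a6 and S100a11 lost as lower. It gave 3 higher and 1 lower for MEIS1-deltaHD, with S100a1 gained and S100a10, S100a11 and S100a13 lost, and 2 higher and 3 lower for MEIS1-WT, with S100a1 gained (0.40) and S100a10 lost. Among the 19990 features, 5783 passed with this scaling for M33-MEIS1, 7139 for MEIS1-deltaHD and 6404 for MEIS1-WT against MIY control. Of these passing features 80.6%, 82.2% and 77.4% were higher, so the counts of members with this scaling say little by themselves. Quantile normalization turned S100a4 with M33-MEIS1 to -0.0346, and the mean of probe sets turned S100a10 with M33-MEIS1 to 0.0728. Quantile normalization and the robust fit each left 1 member higher with MEIS1-deltaHD than with MIY control. Without the intensity trend 0 were higher with MEIS1-WT and 1 with MEIS1-deltaHD against MIY control, and 1 was lower with MEIS1-deltaHD than with MEIS1-WT, S100a4 being lost (adjusted p = 0.0548). Leaving out probe sets that may match several transcripts removed S100a6 and S100a8, which left 1 higher and 1 lower with M33-MEIS1 and 1 higher with MEIS1-deltaHD against MIY control, and 0 lower with M33-MEIS1 and 1 lower with MEIS1-deltaHD against MEIS1-WT. With only the 2 groups compared, 1 member was higher with M33-MEIS1 than with MEIS1-deltaHD. When 1 array was left out, counts against MIY control ranged over 2 to 2 higher and 2 to 2 lower with M33-MEIS1, 1 to 2 and 3 to 5 with MEIS1-deltaHD, and 0 to 1 and 3 to 4 with MEIS1-WT. Against MEIS1-WT they ranged over 3 to 4 and 1 to 1 with M33-MEIS1 and 3 to 3 and 2 to 2 with MEIS1-deltaHD, and M33-MEIS1 against MEIS1-deltaHD gave 0 to 1 and 0 to 0. Values that changed sign when 1 array was left out ranged from -0.0795 to 0.019 (S100a10) and -0.204 to 0.0472 (S100a13) for M33-MEIS1, from -0.0835 to 0.0263 (S100a1) for MEIS1-deltaHD and from -0.0209 to 0.0928 (S100a1) for MEIS1-WT against MIY control, and from -0.0914 to 0.0612 (S100a10) for MEIS1-deltaHD against MEIS1-WT. Same-numbered arrays did not deviate together (correlations of -0.0385 to 0.0253 over 18 pairs, none above 0.1, with 4 best correlated with their own number). The numbers were therefore not used to pair the cultures. For S100a4, S100a6 and S100a10, however, the third array read highest in every group. With the replicate number as a block, 3 calls were gained and 0 lost. M33-MEIS1 against MEIS1-WT had 4 higher, with S100a10 added (0.28, adjusted p = 0.0357), and 2 lower, with S100a4 added (-0.29, adjusted p = 0.0436), and MEIS1-deltaHD against MIY control had 5 lower, with S100a4 added (-0.23, adjusted p = 0.0417).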
